A study of Mus musculus with 18 samples.

Results

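The 18 cerebellum arrays were divided by their content of Ttr, the transthyretin gene and the most characteristic transcript of the choroid plexus. The classes were chosen by the brightest of the 4 Ttr probe sets, judged by the mean over the series: 6 arrays had a log2 value under 10 and are called low, and 12 had 10 or more and are called high. Genes were then compared between the classes with each of the 6 groups given its own mean. Ttr itself is therefore described and was not tested.

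The choroid plexus is a fringe of epithelium over fenestrated capillaries that hangs in the ventricles, and the plexus of the fourth ventricle lies against the underside of the cerebellum. Its epithelial cells are joined by tight junctions, secrete cerebrospinal fluid by moving ions, bicarbonate and water from blood to ventricle, and release carrier proteins and growth factor regulators into that fluid. Their surface carries cilia, and the neighbouring ependyma, which lines the ventricle, carries beating cilia. Transthyretin carries thyroid hormone and retinol-binding protein in the fluid.

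All mice were of strain C57BL/6, the tissue is given as cerebellum, and total RNA was measured on Affymetrix mouse arrays. The lines carry altered alleles of Cacna1a, which encodes the pore of the Cav2.1 channel, as models related to spinocerebellar ataxia type 6. Homozygous MPI 118Q/118Q knockin mice (118Q-KI) and Sca6 CtmKO/CtmKO mice (CtmKO) were 6 weeks old, and homozygous MPI 11Q/11Q knockin mice (11Q-KI) have no stated age here, nor have the wild-type mice of any line. Each line had wild-type littermates of its own (118Q-WT, CtmWT and 11Q-WT), and each of the 6 groups held 3 arrays. The sources used here do not say how the cerebellum was dissected, whether animals were pooled or whether replicates were handled together. P-values thus measure only the spread between these arrays.

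The log2 median of an array lay between 2.38 and 2.55, and any 2 arrays correlated at 0.982 to 0.996 across genes. Cerebellar transcripts were bright on every array: Pcp2, a Purkinje cell gene, lay between 10.30 and 10.86, and Gabra6, a granule cell receptor subunit, between 10.15 and 10.54. RNA quality, read as the 3' minus 5' difference of Gapdh and beta-actin controls, averaged 0.583 ± 0.088 (SD, n = 12) in high arrays and 0.606 ± 0.13 (SD, n = 6) in low arrays (two-sided exact permutation test, p = 0.651).

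Ttr fell into separate ranges. In the 6 low arrays it was 5.30 in 11Q-KI 2, 6.08 in CtmKO 1, 6.27 in 118Q-WT 2, 7.68 in 11Q-KI 1, 8.63 in 118Q-KI 3 and 8.82 in CtmWT 3. The 12 high arrays ran from 11.35 in CtmKO 2 to 12.10 in CtmKO 3, with a median of 11.90 against 6.98 in the low arrays. No array lay between 8.82 and 11.35, so thresholds of 9, 10 and 11 gave the same classes. The highest value of any probe set on any array was 12.16, so the high arrays stand near the top of the scale for this gene. On the other 3 Ttr probe sets the classes did not overlap either, the narrowest gap being from 7.85 to 10.09 on 1455913_x_at. These values chose the classes or come from the same gene and support nothing by themselves.

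Every group but 11Q-WT held both classes. The 118Q-WT, 118Q-KI, CtmWT and CtmKO groups had 1 low array each, 11Q-KI had 2, and all 3 11Q-WT arrays were high. With a mean of its own, 11Q-WT adds to the estimate of the spread and not to the class difference. Low arrays made up 4 of 9 mutant and 2 of 9 wild-type arrays (Fisher's exact test, two-sided p = 0.620).

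**Figure D1:**
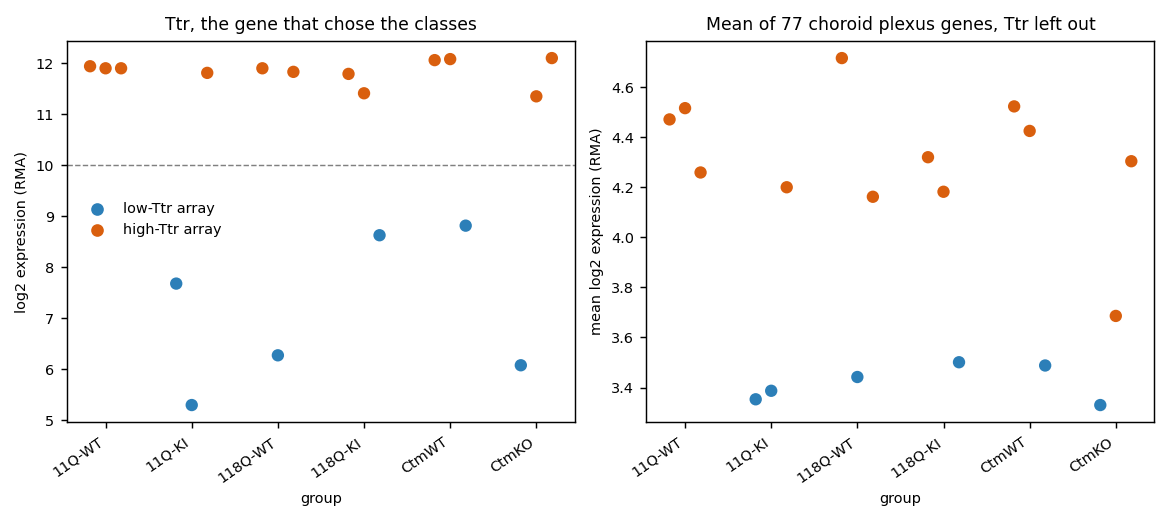
Left, log2 expression of Ttr on the 18 arrays by group, with the threshold of 10 dashed. Right, the mean log2 expression of the 77 choroid plexus genes other than Ttr; each point is 1 array, coloured by its Ttr class. The 6 low arrays sit between 3.33 and 3.50 on the right and the 12 high arrays between 3.69 and 4.72, with CtmKO 2 the lowest of the high arrays.

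Of 18192 genes tested, 47 were higher in the high arrays at an adjusted p under 0.05, which is 0.258% of all genes. None was lower (0%) in limma's test, where 488 genes were higher and 417 lower at an unadjusted p under 0.05. Differences of the 47 ran from 0.37 to 4.19 log2 units, 32 of them over 1 and 11 over 2. The median difference over all genes was -0.012. By a stricter description, 29 genes (0.159%) had every high array above every low array, and 27 of those were among the 47. Within each of the 5 groups that held both classes, all 47 genes were higher in the high arrays, as were 718 of all 18192 genes. The 47 were called by the difference pooled over these same groups, so this describes them and is not independent support.

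The 6 lists of choroid plexus epithelium genes held 77 measured genes besides Ttr, and 27 of them were called, all higher. A list of 32 ciliary and ependymal genes held 3 more, and the other 17 called genes were on no list. The choroid plexus lists mark the same tissue as Ttr and were measured on the same arrays, so their count describes the classes and is not independent support. The median difference was 0.41 over the 77 choroid plexus genes, of which 69 were positive, while 8081 of all 18192 genes were. With the dimmer 50% of genes left out, 13 of the 47 were called and no other gene, and 40 of the 47 averaged under the median of all values, 3.86, in the low arrays. That filter removes genes before the fit, Kcne2 and Kl among them, so the removed genes were not tested again. With array weights 81 genes were called, all 47 among them. Whether these differences come from choroid plexus taken along with the cerebellum was not tested. In bulk tissue, fewer cells of a type and less RNA per cell cannot be told apart.

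**Figure D2:**
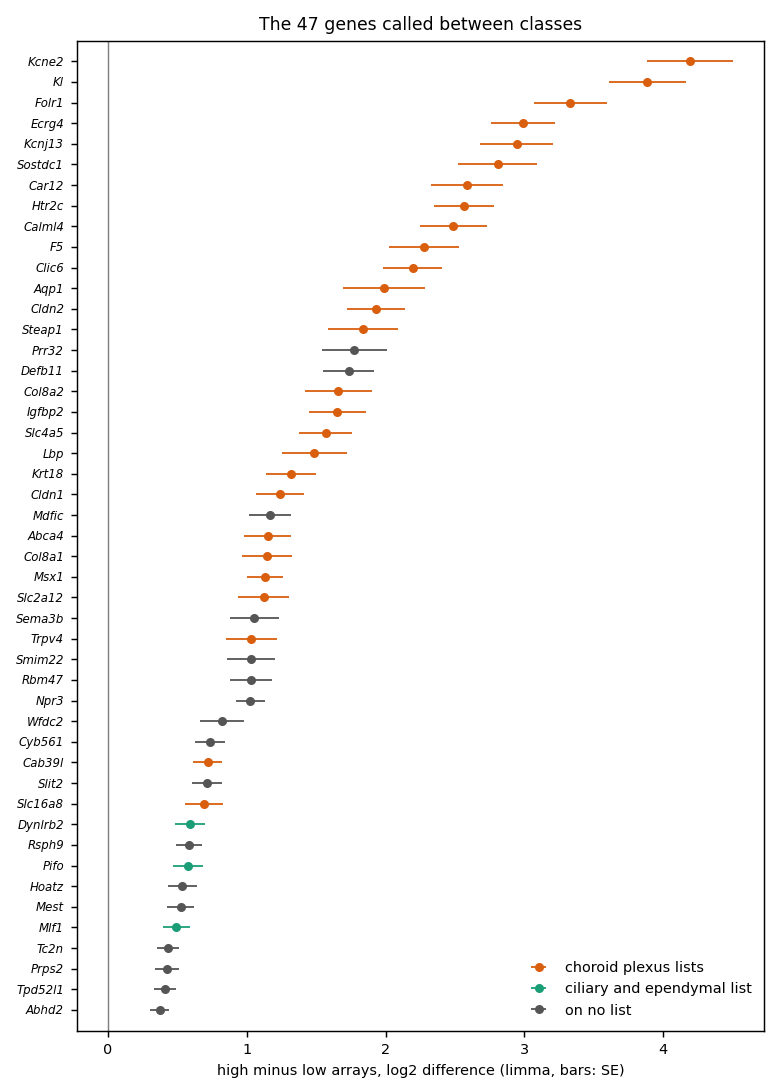
High minus low difference in log2 units for the 47 called genes, with bars for the standard error of limma's model, coloured by list. Kcne2 (4.19) and Kl (3.89) stand at the top, and 15 genes, the 3 ciliary ones among them, lie below 1.

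Among genes of secreted and shed proteins, 6 of 14 were higher in the high arrays, with a list median of 0.45. Kl encodes klotho, a membrane protein that serves as a co-receptor for FGF23 and is also shed into cerebrospinal fluid. Its log2 level ran from 0.59 over a median of 0.84 to 1.27 in the low arrays, and likewise from 3.12 over 5.05 to 5.88 in the high arrays. The classes did not overlap, and the difference was 3.89 (SE 0.28, adjusted p = 1.33e-06). All 6 low values lay under every array's median, so this size depends on the background step of the normalization and no fold is given. With the mean of its probe sets the difference was 2.00. Ecrg4, which encodes a small secreted peptide precursor, ran from 3.30 over 3.86 to 4.73 in the low arrays and from 5.50 over 7.20 to 7.79 in the high arrays. It was 2.99 higher (SE 0.23, adjusted p = 1.58e-06), again with no overlap. Sostdc1, a secreted antagonist of BMP and Wnt signals, lay between 1.64 and 1.92 in the low arrays with a median of 1.82, the tightest of these ranges. In the high arrays it ran from 2.67 over 4.67 to 5.75, a difference of 2.81 (SE 0.29, adjusted p = 3.01e-05).

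F5, the coagulation factor V gene, overlapped between the classes. It was 2.31 in 11Q-KI 1 and at most 1.18 in the other 5 low arrays, against 2.16 to 4.29 in the high arrays, and differed by 2.28 (SE 0.25, adjusted p = 7.50e-05). Igfbp2, which binds insulin-like growth factors, rose by 1.65 (SE 0.21) from the low to the high class, and Lbp, the lipopolysaccharide-binding protein gene, by 1.49 (SE 0.24). Among the 8 secreted genes that did not pass were Spint2 (0.45, adjusted p = 0.0950), Mia (0.45, adjusted p = 0.212) and Igf2 (0.35, adjusted p = 0.902). Igf2, a growth factor that the meninges also make, was already at 7.11 ± 0.16 (SD, n = 6) in the low arrays and at 7.42 ± 0.36 (SD, n = 12) in the high arrays. Cp, the ceruloplasmin gene, differed by -0.013 (adjusted p = 0.998).

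Transport and channel genes gave 11 calls among 27, with a median of 0.42. Kcne2, a small regulatory subunit of potassium channels at the apical membrane, had the largest difference of the genes tested. It ran from 0.38 over 0.53 to 1.06 in the low arrays and from 2.70 over 4.97 to 5.86 in the high arrays. The classes did not overlap, and the difference was 4.19 (SE 0.31, adjusted p = 1.33e-06). As for Kl, the low values were all under the array medians, and no fold is given. The same holds for the low values of other called genes, Sostdc1, F5, Car12, Aqp1 and Calml4 among them. Their sizes depend on the background step too. Kcnj13, the inward rectifier Kir7.1, ran from 2.72 over 2.96 to 3.86 in low arrays and from 4.89 over 6.05 to 7.08 in high arrays. It was 2.95 higher (SE 0.26, adjusted p = 7.88e-06).

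Car12, a carbonic anhydrase that supplies bicarbonate for fluid secretion, stayed between 1.41 and 1.79 in low arrays and ran from 2.44 over 4.38 to 5.30 in high arrays. Its difference was 2.59 (SE 0.26, adjusted p = 2.47e-05), and 1.01 with the mean of its probe sets. Clic6, a chloride channel-like protein gene, ran from 3.51 over 4.02 to 4.51 and from 5.01 over 6.52 to 7.11, a difference of 2.20 (SE 0.21, adjusted p = 2.31e-05). Aqp1, the apical water channel, ran from 0.99 over 1.28 to 1.82 and from 1.94 over 3.54 to 4.49, a difference of 1.99 (SE 0.29, adjusted p = 0.00202). For each of these 3 genes the lowest high array was CtmKO 2, and it still lay above every low array.

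Other transport genes had smaller differences that passed. Steap1 was 1.84 higher (SE 0.25), Slc4a5, a sodium bicarbonate cotransporter, 1.57 (SE 0.19), and Abca4, a lipid transporter, 1.15 (SE 0.17). The glucose transporter Slc2a12 was 1.12 higher (SE 0.18), the osmosensitive channel Trpv4 1.03 (SE 0.18) and the lactate transporter Slc16a8 0.69 (SE 0.14, adjusted p = 0.0415). Several genes of fluid secretion that neurons or glia also use did not pass: Slc12a2, the sodium potassium chloride cotransporter, differed by 0.14 (SE 0.065), Slc4a10 by 0.15 (SE 0.093) and Atp1b1, a sodium pump subunit, by -0.055 (SE 0.095). Their adjusted p values were 0.978, 0.990 and 0.994. Atp1b1 lay between 9.90 and 10.90 on all 18 arrays, with no order by class.

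Receptor genes gave 2 calls among 7, with a median of 0.41. Folr1, the folate receptor that carries folate into cerebrospinal fluid, ran from 0.89 over 1.87 to 2.38 in low arrays and from 3.34 over 5.35 to 6.06 in high arrays. The difference was 3.33 (SE 0.26, adjusted p = 1.98e-06), with no overlap. Htr2c, the serotonin 2C receptor that choroid plexus epithelium carries at high density, ran from 1.49 over 2.33 to 3.09 and from 3.36 over 5.16 to 5.94. It was 2.57 higher (SE 0.22, adjusted p = 4.45e-06), and 1.31 with the mean of its probe sets. Tmem72 (0.73, adjusted p = 0.135) and Ace, the angiotensin-converting enzyme gene (0.41, adjusted p = 0.689), did not pass, nor did the endocytic receptor gene Lrp2 (0.084, adjusted p = 0.990).

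Enzyme and binding protein genes gave 2 calls among 11, with a median of 0.32. Calml4, a calmodulin-like protein gene, overlapped by 1 array. It was 2.27 in the low array 118Q-KI 3 and 2.11 in the high array CtmKO 2, while the other 11 high arrays ran from 3.84 to 5.14 and the other 5 low arrays from 1.16 to 1.94. The difference was 2.49 (SE 0.24, adjusted p = 2.31e-05). Cab39l, which encodes a scaffold of the kinase LKB1, was 0.72 higher (SE 0.10). Gpx8, a peroxidase gene of the endoplasmic reticulum, fell just short at 0.49 (adjusted p = 0.0603).

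The list of junction, keratin and basement membrane genes had the highest median of the 6, 0.83, and 5 of its 10 members were called. Cldn2, the claudin of leaky, water-permeable tight junctions, ran from 1.61 over 1.97 to 2.42 in low arrays and from 2.80 over 4.08 to 4.74 in high arrays, a difference of 1.93 (SE 0.21, adjusted p = 6.59e-05). Cldn1, another claudin of this epithelium, was 1.24 higher (SE 0.17), and Krt18, a keratin of simple epithelia, 1.32 (SE 0.18). Col8a2 and Col8a1, the chains of type VIII collagen, were 1.66 (SE 0.24) and 1.15 (SE 0.18) higher. Krt8, the partner keratin of Krt18, did not pass (0.51, SE 0.13, adjusted p = 0.245), and Cldn3 differed by 0.077 (adjusted p = 0.990).

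Transcription factor genes gave 1 call among 8, with a median of 0.069. Msx1, a homeobox gene of the dorsal midline, ran from 2.53 over 3.13 to 3.69 in low arrays and from 3.91 over 4.40 to 4.72 in high arrays, with no overlap (1.13 higher, SE 0.13, adjusted p = 1.53e-04). Otx2, a homeobox gene that maintains this epithelium, was at 4.67 ± 0.19 (SD, n = 6) in low arrays and 5.19 ± 0.28 (SD, n = 12) in high arrays and did not pass (0.42, SE 0.12, adjusted p = 0.380). Meis1 (-0.16, adjusted p = 0.990) and Mecom (-0.18, adjusted p = 0.990) were on the negative side.

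**Figure D3:**
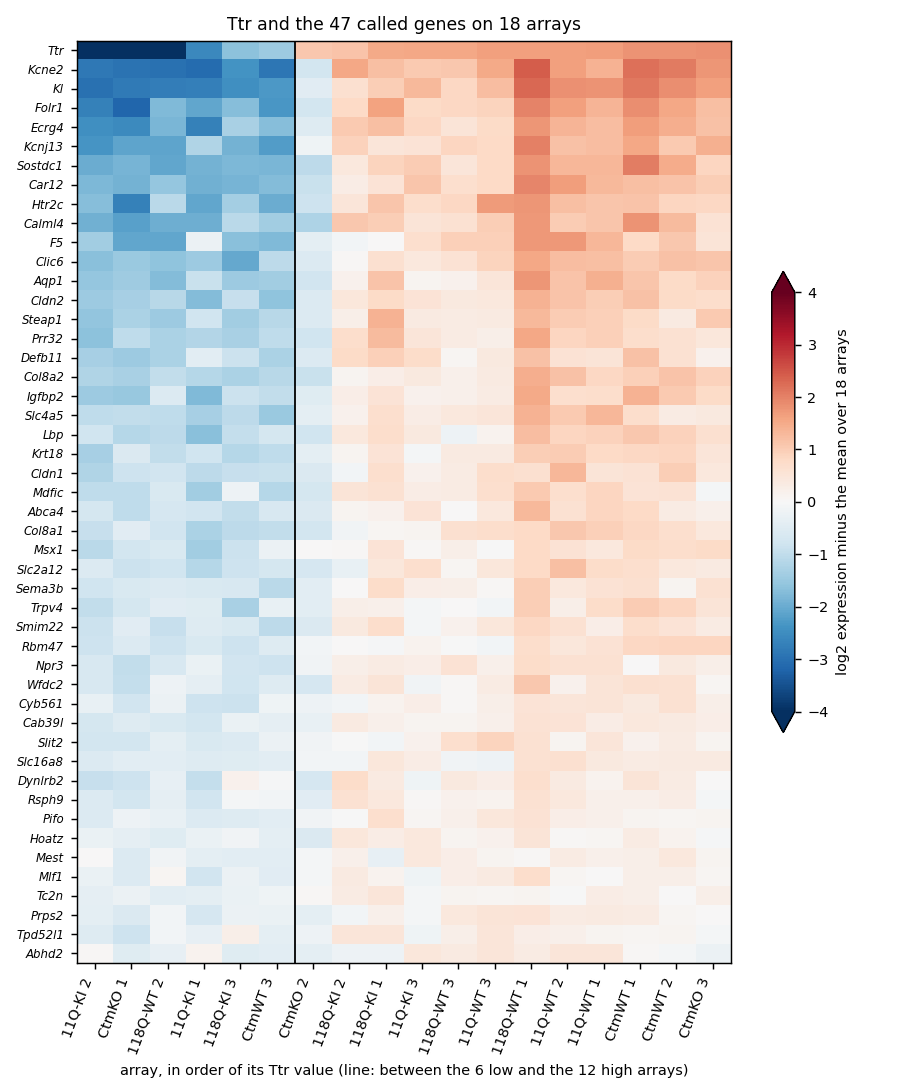
Log2 expression of Ttr and the 47 called genes on each array, minus the gene's mean over the 18 arrays; genes run from the largest to the smallest difference, and arrays from the lowest to the highest Ttr value. The line separates the 6 low from the 12 high arrays, and CtmKO 2, just right of it, is paler than the other high arrays. The Ttr values of 11Q-KI 2 and CtmKO 1 lie beyond the end of the colour scale.

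Among the high arrays, CtmKO 2 stood apart. Its Kcne2 value was 2.70 against 4.51 or more in the other 11 high arrays, and its Kl value 3.12 against 4.24 or more. For Folr1 it had 3.34 against 4.82 or more. The mean over the 77 choroid plexus genes was 3.69 on this array, between the low arrays (3.33 to 3.50) and the other high arrays (4.16 to 4.72). Its Ttr value of 11.35 was close to those of the other high arrays. The highest mean, 4.72, was on 118Q-WT 1, which also had the highest values of Kcne2, Kl and Folr1 on any array. Without CtmKO 2, 65 genes were called, all 47 among them, and 1 gene was lower.

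Within the high class, the array with the highest Ttr value was not the one with the highest mean over the other choroid plexus genes. CtmKO 3 had Ttr at 12.10 and a mean of 4.30, while 118Q-WT 1 had 11.90 and 4.72. Ttr chose the classes and is near the top of the scale on these arrays, so no correlation between these measures is given.

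Promoters of the 3 called choroid plexus genes with the smallest p values, Kl, Kcne2 and Ecrg4, were read from RefSeq sequence of build GRCm38.p6 because these genes moved together across arrays. Each runs 5' to 3' on the plus strand, which is the strand of the gene, and covers 300 bases around the transcription start. The Kl window is chr5:150952357-150952656, the Kcne2 window, the first of 2 listed starts, chr16:92292139-92292438, and the Ecrg4 window chr1:43730352-43730651. Capitals mark a match to a searched motif.
Kl: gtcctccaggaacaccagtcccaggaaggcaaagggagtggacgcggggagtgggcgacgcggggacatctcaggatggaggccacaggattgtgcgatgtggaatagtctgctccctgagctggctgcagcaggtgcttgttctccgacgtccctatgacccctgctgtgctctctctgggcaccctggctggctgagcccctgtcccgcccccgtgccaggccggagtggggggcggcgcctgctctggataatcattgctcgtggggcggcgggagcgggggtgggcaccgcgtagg
Kcne2: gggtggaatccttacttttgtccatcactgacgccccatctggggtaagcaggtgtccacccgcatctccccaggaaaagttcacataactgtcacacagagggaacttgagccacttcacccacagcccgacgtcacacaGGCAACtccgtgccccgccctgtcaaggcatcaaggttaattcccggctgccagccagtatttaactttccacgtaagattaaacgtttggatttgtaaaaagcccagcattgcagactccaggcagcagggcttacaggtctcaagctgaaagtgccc
Ecrg4: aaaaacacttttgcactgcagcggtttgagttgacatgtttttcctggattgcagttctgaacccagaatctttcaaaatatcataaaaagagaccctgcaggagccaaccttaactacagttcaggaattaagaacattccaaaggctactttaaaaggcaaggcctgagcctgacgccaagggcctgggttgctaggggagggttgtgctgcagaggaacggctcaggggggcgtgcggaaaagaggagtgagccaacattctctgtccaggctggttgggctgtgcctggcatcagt
Both strands were searched for TAATCC, the core that OTX2 binds, and GTTGCC, part of the X-box that RFX factors of ciliated cells bind. The Kcne2 window held 1 GTTGCC on the other strand, and neither motif was found in the Kl and Ecrg4 windows. Of 41 called genes with a listed promoter, 3 (7.32%) held TAATCC, against 6.03% of 14452 tested genes. GTTGCC stood in 9 of the 41 (21.95%), in 3 of the 23 called choroid plexus genes, in 2 of the 3 called ciliary genes and in 12.8% of all. A match describes letters in a window and is not a measured binding site.

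Of 32 ciliary and ependymal genes, 3 were higher, 23 were on the positive side, and the median was 0.090. Dynlrb2, a dynein light chain gene, was at 2.34 ± 0.48 (SD, n = 6) in low arrays and 3.06 ± 0.38 (SD, n = 12) in high arrays, which overlapped, and was 0.59 higher (SE 0.11, adjusted p = 0.0176). Pifo, a gene of primary cilia, was 0.58 higher (SE 0.11, adjusted p = 0.0293), with every high array above every low array, and Mlf1 was 0.49 higher (SE 0.097, adjusted p = 0.0373). Ccdc113, a ciliary coiled-coil protein gene, did not pass (0.37, adjusted p = 0.124) although its classes did not overlap. Foxj1, the master regulator of motile cilia, overlapped: it ran from 2.26 to 2.93 in low arrays and from 2.44 to 3.07 in high arrays. The list is dim on these arrays, with 31 of its 32 genes averaging under the median of all values, 3.86, in the high arrays.

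The 17 called genes that were on no list are named here after their values were seen. Prr32 ran from 1.69 over 2.11 to 2.33 in low arrays and from 2.54 over 3.99 to 4.89 in high arrays, a difference of 1.78 (SE 0.24, adjusted p = 7.60e-04) with no overlap. Defb11, a beta-defensin gene, was 1.74 higher (SE 0.18) and overlapped by the low array 11Q-KI 1 at 2.01, above the high array CtmKO 2 at 1.92. Npr3, the clearance receptor for natriuretic peptides, had a small error: it was 1.03 higher (SE 0.10, adjusted p = 2.47e-05), at 0.55 ± 0.24 (SD, n = 6) against 1.58 ± 0.26 (SD, n = 12).

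Mdfic was 1.17 higher (SE 0.15), Sema3b, a secreted semaphorin gene, 1.06 (SE 0.18) and Smim22 1.03 (SE 0.17). The RNA-binding protein gene Rbm47 was 1.03 higher (SE 0.15), with the low arrays between 0.89 and 1.20 and the high arrays between 1.62 and 2.59. Wfdc2, a secreted protease inhibitor gene of epithelia, was 0.82 higher (SE 0.16), Cyb561, a transmembrane electron carrier gene, 0.73 (SE 0.11) and Slit2, a guidance ligand, 0.71 (SE 0.11). Of the 17, 2 belong to cilia by common knowledge: Rsph9, a radial spoke protein gene, was 0.58 higher (SE 0.092), and Hoatz 0.54 (SE 0.11). The smallest differences were those of Mest (0.52), Tc2n (0.43), Prps2 (0.43), Tpd52l1 (0.41) and Abhd2 (0.37), with adjusted p values from 0.0166 to 0.0421. For Abhd2 the classes overlapped widely, from 5.81 to 6.44 in low arrays and from 5.92 to 6.79 in high arrays.

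The other cells of the plexus and of nearby tissue did not give a call. For endothelium of fenestrated vessels, 0 of 9 genes passed in limma's test (median 0.074), 1 of them, Plvap, at an unadjusted p under 0.05 and on the negative side (-0.25, adjusted p = 0.978). Barrier endothelium (0 of 13, median -0.0032) and mural cells (0 of 10, median 0.014) had no gene at an unadjusted p under 0.05. Meningeal fibroblast genes gave 0 of 22 (median 0.0078), with 3 at an unadjusted p under 0.05. Pcolce, an enhancer of procollagen processing, came closest, at 0.63 (SE 0.13, adjusted p = 0.0526), while Col1a2, a collagen gene of the same list, lay between 5.94 and 6.80 on all arrays. Border macrophage genes gave 0 of 10 (median 0.039) and red blood cell genes 0 of 5 (median 0.016), both with none at an unadjusted p under 0.05. These 2 lists are dim: 10 of 10 and 4 of 5 genes averaged under the median of all values in the high arrays, where differences are hard to measure.

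Cells of the cerebellum gave no call either, and their medians leaned slightly negative. In limma's test 0 of 19 Purkinje cell genes (median -0.048), 0 of 19 granule cell genes (median -0.041) and 0 of 13 interneuron genes (median -0.11) passed, with none at an unadjusted p under 0.05. Bergmann glia and astrocyte genes gave 0 of 20 (median -0.098, 19 of them negative), oligodendrocyte genes 0 of 20 (median -0.11, 18 negative) and microglia genes 0 of 17 (median -0.15, 13 negative). At an unadjusted p under 0.05, these 3 lists held 1, 1 and 5 genes, all lower in high arrays. The 5 microglia genes include Aif1 (-0.29, adjusted p = 0.793) and P2ry12 (-0.28, adjusted p = 0.888). Over all genes, 10111 of 18192 were negative.

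Genes of tissue that adjoins the cerebellum showed no class difference that passed. Hindbrain genes outside the cerebellum, Hox genes among them, gave 0 of 19 (median 0.027), brainstem monoamine genes 0 of 12 (median 0.053), pituitary and pineal genes 0 of 13 (median 0.025) and midbrain and forebrain genes 0 of 15 (median 0.00092). None of these 4 lists had a gene at an unadjusted p under 0.05 in limma's test. The 3 dim ones, hindbrain, pituitary and forebrain, had 16 of 19, 13 of 13 and 13 of 15 genes under the median of all values, where differences are hard to measure. Single arrays can still differ: the mean of the hindbrain genes reached 2.53 on a high array, where the class median was 1.90. In the low arrays that mean ran from 1.81 to 1.95.

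**Figure D4:**
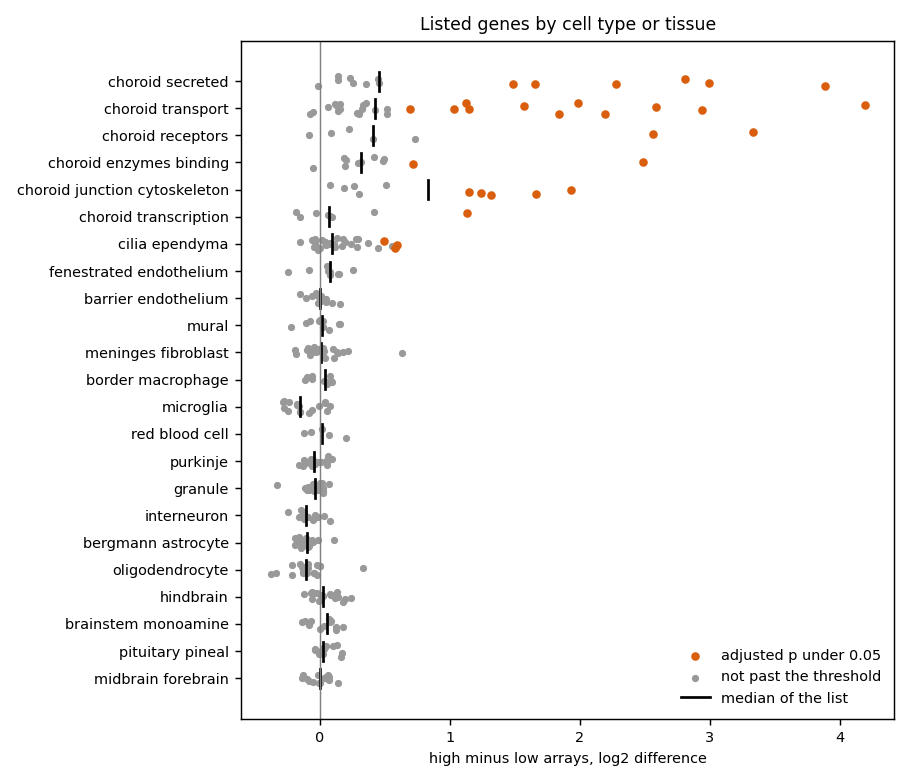
High minus low difference in log2 units of every listed gene, 1 row per list, with the list's median as a black bar and genes past the threshold in orange. Orange points occur in the 6 choroid plexus lists and the ciliary list and in no other, where the points lie between -0.38 and 0.63.

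No gene was called lower in the high arrays. The 5 nearest to the threshold were Tmem219 (-0.31, adjusted p = 0.0694), Pdgfrl (-0.63, adjusted p = 0.0882), Orc5 (-0.34, adjusted p = 0.111), Ly6h (-0.36, adjusted p = 0.114) and Fxyd6 (-0.37, adjusted p = 0.135), a predicted locus left out. This side of the comparison depended on single arrays. Without 11Q-KI 1, Ly6h and Pdgfrl passed (2 genes), without 11Q-KI 3 Pdgfrl and Zfp868 (2 genes), without 118Q-WT 3 Tmem219, Orc5 and Fxyd6 (3 genes), and without CtmKO 2 Olfm4 (1 gene). Zfp868 and Olfm4 are named because they passed there. With arrays weighted by their fit, 9 genes were lower, Tmem219, Pdgfrl, Orc5, Ly6h and Fxyd6 among them.

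Where a gene had several probe sets, the brightest over all arrays was used, and the others mostly showed less. The 24 called genes with further probe sets had 39 of them, of which 35 were positive and 6 called, with a median of 0.15. Sostdc1 differed by 3.87 (SE 0.30) on 1449340_at against 2.81 on its brightest, and Ecrg4 by 3.40 (SE 0.26) on 1460049_s_at and 0.82 (SE 0.14) on 1440780_x_at. For Kl the other probe set, 1451892_at, differed by 0.12 (SE 0.10), with a mean of 0.75 over all arrays. Choroid plexus genes that were not called had 63 other probe sets, 49 of them positive, and 3 were called. Trpm3, a cation channel gene, was at 0.13 (SE 0.10) on its brightest probe set and 1.5 higher (SE 0.22, adjusted p = 0.00345) on 1443723_at. Ezr, the ezrin gene of microvilli, was at 0.26 and 0.95 higher (SE 0.13, adjusted p = 0.00250) on 1450850_at, and Slc31a1, a copper transporter gene, was at 0.52 and 0.64 higher (SE 0.12, adjusted p = 0.0329) on 1455285_at. Among 10092 probe sets with several gene symbols or none, 8 were higher and 1 lower, 1448136_at with the largest difference at 2.35 (SE 0.23) and 1457787_at the lower one, at -0.46 (SE 0.088, adjusted p = 0.0477).

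The size of the class difference was then compared between mutant and wild-type arrays. In the fit with an interaction term, 0 of 18192 genes (0%) differed in limma's test, and 565 did at an unadjusted p under 0.05. The smallest adjusted p was 0.9999. All 47 called genes were on the positive side in both kinds of array. They were called from these same arrays, so the shared sign is not independent support. Their median difference was 1.48 in wild types and 1.05 in mutants. The 47 genes moved together across the same few arrays and are not separate observations. The mutant side includes CtmKO 2, whose group had the lowest median difference of these genes, 0.81. The part of that array in the smaller mutant median was not tested. Kcne2 differed by 4.87 (SE 0.46) in wild types and 3.74 (SE 0.37) in mutants, and Kl by 4.30 (SE 0.44) and 3.61 (SE 0.36). F5 had the smallest unadjusted interaction p of the 12 largest differences, 0.00562, at 3.07 (SE 0.32) in wild types and 1.75 (SE 0.26) in mutants. The low mutant array 11Q-KI 1, with its F5 value of 2.31, and the high mutant array CtmKO 2 enter on the mutant side, and their part in this was not tested. In a fit of the wild types alone, the 11Q-WT arrays, all high, add only to the estimate of the spread. With 7 high and 2 low wild-type arrays alone, 22 genes were called, and with 5 high and 4 low mutant arrays alone, 19. The 15 genes in both lists were 68.2% of the first and 78.9% of the second, and 13 of them were on the choroid plexus lists: Calml4, Car12, Cldn2, Clic6, Ecrg4, F5, Folr1, Htr2c, Kcne2, Kcnj13, Kl, Slc4a5 and Sostdc1.

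By group, the median difference of the 47 genes between high and low arrays was 1.29 in 11Q-KI, 1.34 in 118Q-WT, 1.21 in 118Q-KI, 1.66 in CtmWT and 0.81 in CtmKO, the group that holds CtmKO 2. Over all genes the same medians lay between -0.042 and 0.0065. Kcne2 differed by 4.02, 4.71, 3.75, 5.02 and 3.46 in these groups, in that order. Each of these is a comparison of 3 arrays and has no test of its own. The 47 genes were called by the difference pooled over these groups.

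The classes bear on the mutant comparisons of the lines to different degrees. In the 118Q and Ctm lines each group had 1 low array. The mutant minus wild-type difference of a gene is therefore the same with and without a class term, and only its error changes. A class term also cannot adjust for differences within a class, such as the lower choroid plexus level of CtmKO 2. The 47 called genes had a median difference of -0.52 in the Ctm line, from -1.51 to -0.0035. In the 118Q line it was -0.21, from -0.79 to 0.29. For the 77 choroid plexus genes these medians were -0.32 and -0.10. The median standard error of the 47 called genes was 0.48 without the term and 0.27 with it, and that of the 77 choroid plexus genes 0.230 and 0.195. In the 118Q line 280 genes were called without the term (1.54%) and 279 with it (1.53%), with 260 in both. In the Ctm line 170 were called without it (0.934%) and 159 with it (0.874%), with 153 in both. In the 11Q line 0 were called without it (0%) and 0 with it (0%) by limma.

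Among choroid plexus genes, Steap2, a metalloreductase, was lower in 118Q-KI than in 118Q-WT with and without the term (-0.61, adjusted p = 0.0301 and 0.0313). This is 1 of 77 genes, near the 1.53% called among all genes, and the 118Q count fell from 279 to 6 with an RNA quality covariate. No other choroid plexus gene was called in any line. Calml4 in the Ctm line came nearest, at -1.51, with an adjusted p of 0.562 without the term and 0.0585 with it. Outside those lists, 2 of the 47 genes passed only with the term. They were Abhd2 in the 118Q line (-0.43, adjusted p = 0.198 without and 0.0443 with) and Dynlrb2 in the Ctm line (-0.76, adjusted p = 0.217 without and 0.0329 with). For Calml4 and Dynlrb2 the lowest high array was CtmKO 2, at 2.11 and 2.14. Whether their Ctm differences come from genotype or from the lower choroid plexus level of that array was not tested.

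In the 11Q line, where 2 of 3 mutants and no wild type were low, the term moved the differences themselves. The median difference of the 77 choroid plexus genes was -0.38 without the term and -0.15 with it, and that of the 47 called genes -1.14 and -0.33. Kl was at -3.08 (SE 1.43) without the term and -0.49 (SE 0.46) with it, Kcne2 at -3.14 (SE 1.54) and -0.34 (SE 0.51), and Folr1 at -2.64 (SE 1.23) and -0.42 (SE 0.43). None of these passed with or without it, the adjusted p values being 0.876 for all 3 without the term and 0.897, 0.928 and 0.904 with it.

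**Figure D5:**
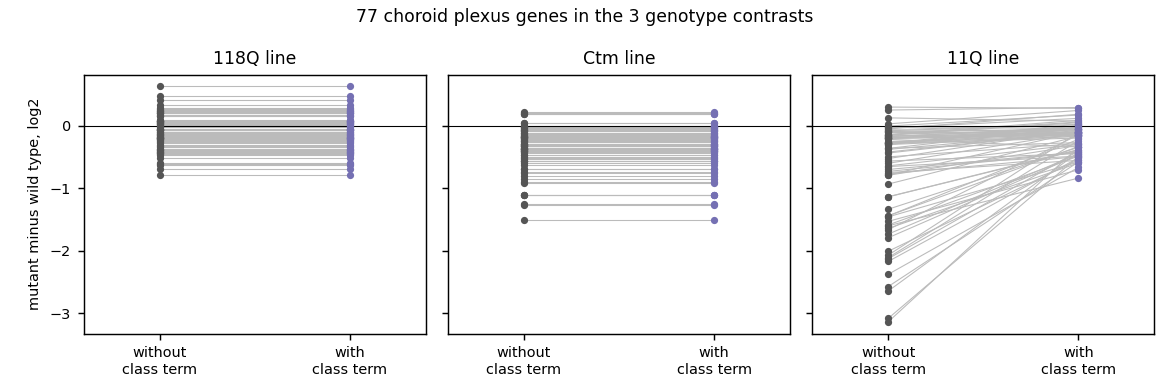
Mutant minus wild-type difference in log2 units of the 77 choroid plexus genes in each line, from the fit without (grey) and with (purple) the class term; lines join the same gene. In the 118Q and Ctm lines the values are identical. In the 11Q line the lowest value is -3.14 without the term (Kcne2) and -0.84 with it (Col8a1).

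The mean level of the 77 choroid plexus genes was also compared by genotype, where 3 against 3 arrays cannot give an exact p under 0.10. It was 4.00 ± 0.44 in 118Q-KI and 4.11 ± 0.64 in 118Q-WT (SD, n = 3 each, two-sided exact permutation p = 1), a difference of -0.11. In the Ctm line it was 3.77 ± 0.49 in CtmKO and 4.15 ± 0.57 in CtmWT (SD, n = 3 each, exact permutation p = 0.40). In the 11Q line it was 3.65 ± 0.48 in 11Q-KI and 4.42 ± 0.14 in 11Q-WT (SD, n = 3 each, exact permutation p = 0.10), a difference of -0.77. The last p is that smallest value, and all 3 mutants lay below all 3 wild types. The sign in the 118Q line rests on single arrays: it was 0.20 without 118Q-WT 1 and 0.14 without 118Q-KI 3.

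Counts of genotype calls moved with single arrays far more than with the class term. The 118Q count of 279 became 173 without 11Q-WT 1, 150 without 11Q-KI 2, 170 without 11Q-KI 3, 60 without 118Q-WT 1, 130 without 118Q-WT 2, 6 without 118Q-WT 3, 877 without 118Q-KI 1, 7 without 118Q-KI 2 and 19 without 118Q-KI 3. It was 177 without CtmWT 3, 175 without CtmKO 1, 148 without CtmKO 2 and 164 without CtmKO 3. The Ctm count of 159 became 101 without 11Q-KI 2, 439 without CtmWT 1, 14 without CtmWT 2, 1 without CtmWT 3, 1 without CtmKO 1, 2 without CtmKO 2 and 36 without CtmKO 3. The 11Q count was 1 without 11Q-WT 2 or without 118Q-WT 1. With an RNA quality covariate the 118Q count was 6, and this measure was 0.449 ± 0.030 in 118Q-KI and 0.549 ± 0.060 in 118Q-WT (SD, n = 3 each, exact permutation p = 0.10). The class comparison itself was steadier, between 33 genes higher without 118Q-WT 2 and 65 without CtmKO 2.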

How the data were processed

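The deposited table holds log2 expression values per probe set, made by the authors with RMA per the submitters' processing notes, without a version. Its background settings, on which differences of dim genes depend, are not given in the sources used here. Of 45101 probe sets, 64 are controls, 34945 have 1 gene symbol and 10092 have several or none. The brightest probe set per gene gave 18193 genes, 18192 of them tested without Ttr, with no filter on dim genes.

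limma 3.58.1 in R 4.3.3 fitted 1 mean per group and a class term over all 18 arrays (11 residual and 6.15 prior degrees of freedom), with two-sided moderated tests and Benjamini-Hochberg adjustment over all genes. Called means an adjusted p under 0.05. The script was tested on simulated data. Of 380 list entries, 346 were measured, and the rest were not analysed here. Named are choroid plexus genes, the 12 largest differences, the 5 smallest p values where fewer than 5 were called, up to 4 genes of each other list, and some marked as picked once their values were known. The members and lists were chosen with earlier results of these data known. Over 9 mutant and wild-type pairs with the same replicate number, deviations correlated between -0.19 and 0.22. Pairs with different numbers ran from -0.28 to 0.27. These ranges overlap, so the check cannot decide whether replicate numbers pair arrays. The number of arrays limits the precision.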

Additional observations from a re-analysis of the deposited data

Results flagged for a closer look

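Among 15 measures examined over the 6 low arrays (Ttr, the 12 genes with the largest differences, the mean of the choroid plexus genes and RNA quality), 1 had an array far from the others: Kcne2 was 1.06 on 118Q-KI 3, against 0.59 or less on the other 5. Chance alone sets apart about 1 such group in 20.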

How the results depend on the processing

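The count of 47 higher genes was 13 with the dimmer 50% of genes left out, 81 with array weights, 22 in wild-type and 19 in mutant arrays alone, and 33 to 65 on leaving out 1 array. The dimmer genes were removed before the fit, so lower counts there include called genes that were not tested again. The choroid plexus count of 27 was 9 without the dimmer genes and 16 in mutant arrays alone, and 24 to 33 on leaving out 1 array. The count of 0 lower genes was 1 with Ttr as a covariate, 1 with an RNA quality covariate, 9 with array weights and 0 to 3 on leaving out 1 array. The interaction count stayed at 0 in every refit, leave-one-out ones included. The 118Q count of 279 was 6 with the RNA quality covariate, 184 with every probe set, 585 without the dimmer genes, 2038 with array weights and 147 with a fold change of at least 1.5, and 6 to 877 on leaving out 1 array. The Ctm count of 159 was 294, 271 and 762 with every probe set, without the dimmer genes and with array weights, and 1 to 439 on leaving out 1 array; the 11Q count was 0 to 1. The cause was not tested. The choroid plexus level difference ran from -0.44 to 0.20 in the 118Q line (positive at 0.20 without 118Q-WT 1 and 0.14 without 118Q-KI 3), -0.70 to -0.15 in the Ctm line and -1.05 to -0.62 in the 11Q line. With the replicate block, 48 genes were higher (46 of them shared with the 47), 27 of them choroid plexus genes, and the 118Q and Ctm counts were 235 and 144. Whether the replicate numbers stand for shared handling is not known. Of 389 refits of the 12 genes with the largest differences, 388 kept direction and call and 1 lost the call (Aqp1 in mutant arrays alone, 1.64). Their sizes moved more: with all probe sets per gene averaged, Kl was 2.00, Car12 1.01 and Htr2c 1.31. All alternatives were chosen with earlier results known. The 3 arrays per group, and signals of dim genes near background, limit what can be seen.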
